A study of Mus musculus with 3 samples.

Results

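The clustered protocadherins were taken as the protein-coding genes of mouse chromosome 18 whose symbols begin with Pcdha, Pcdhb or Pcdhg in the RefSeq gene table of GRCm38.p6. The rule found 57 genes of 21900 protein-coding genes, with 14 in the alpha cluster, 22 in the beta cluster and 21 in the gamma cluster. ATAC-seq peaks, which mark DNA open to the Tn5 transposase, were read from 200 kb before the first gene to 200 kb after the last, at chr18:36730285-38041873 (mm10, the same assembly as GRCm38). This window held 102 of 88898 Halo-Sox2 peaks, 119 of 83995 Halo-Sox2a peaks and 114 of 72638 control peaks. Merging overlapping peaks gave 135 regions in the window, of 130664 genome-wide.

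The study concerns the electrostatic properties of disordered protein regions and what they do to a transcription factor's target search and pioneer activity, the opening of closed chromatin. Its 3 libraries came from CGR8-derived mouse embryonic stem cell lines, all kept in serum medium with LIF and the inhibitors CHIR99021 and PD184352, with about 50000 cells per reaction and 75-bp read pairs. Line SES4.1 expressed a Halo-tagged Sox2 (a transcription factor of pluripotent cells; the tag binds a dye) under 300 ng/mL doxycycline for 20 h. Line SES5.1 expressed Halo-Sox2a, a form the labels name without describing, under 70 ng/mL for 20 h. Both were stained with 50 nM of a Halo dye and sorted by 1 intensity gate. SES11, the control, is of the same CGR8 origin, and its labels call it a control and name no Halo fusion; a dose, a dye and a sort are not stated for it separately. Each group was 1 line and 1 library, so line, dose, handling and transgene cannot be told apart, and no difference could be set against replicate error. No p-value was computed.

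Clustered protocadherins are cadherin-like adhesion molecules of the cell surface that give single neurons an identity used in self-recognition of their branches. Each variable exon of the alpha and gamma clusters has its own promoter and is spliced to constant exons shared by its cluster, while beta genes are single-exon genes without constant exons. In neurons most variable promoters are chosen at random, whereas the C-type members, Pcdhac1, Pcdhac2, Pcdhgc3, Pcdhgc4 and Pcdhgc5, are used more widely. CTCF and cohesin bind at many of the promoters and join them to distant enhancers, some of which lie near the alpha constant exons and downstream of the gamma cluster.

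The depth of the libraries is unknown, because the lists hold no reads or coverage, and its part in the differing numbers of peaks was not tested. Each peak has a score, a whole number of the authors' own with no stated scale, used only to rank peaks within their list. A percentile is the percent of a list's peaks that score lower than the peak in question. Shares are given with Wilson 95% intervals and medians with binomial order-statistic 95% intervals, both of which cover counting error only. The table gives no exons or untranslated regions, so a peak inside a gene was not assigned to one. Of 10 embryonic stem cell marker genes, 8, 9 and 9 had a peak at the 5′ end in Halo-Sox2, Halo-Sox2a and control (at either end for marker genes without a strand in the table used, 2 of these 10), with Nanog absent from the Halo-Sox2 list and Esrrb from each list. Marker genes of other cell types were also open (neuron 6, 5 and 6 of 8; neural progenitor 6, 6 and 5 of 6; primitive endoderm 3, 3 and 3 of 5; fibroblast 3, 3 and 3 of 5), so these peaks did not separate cell types; 3 genes each of the neuron, endoderm and fibroblast lists were read at either end.

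In bulk libraries, a lower peak rank from fewer open cells and from less opening per cell cannot be told apart. A larger share of regions was held by all 3 lists in the protocadherin window than in the genome, but unevenly by segment. Of its 135 regions, 86 (63.7%, 55.3 to 71.3) carried a peak in all 3 lists, against 32.1% of all regions. These were 31 of 40 regions in gamma, 16 of 29 in beta and 11 of 27 in alpha. In the upstream flank they were 9 of 12 and in the downstream flank 13 of 21. The background was every region, and regions at genes were not compared separately. Regions of Halo-Sox2 alone were 10 (7.41%, 4.07 to 13.1), against 24.3% genome-wide, and regions shared by both transgene lists without the control were 4 (2.96%, 1.16 to 7.37), against 8.95%. Regions of Halo-Sox2a and control without Halo-Sox2 were 19 (14.1%, 9.20 to 20.9), close to the 10.3% genome-wide share. The remaining classes were Halo-Sox2a alone with 8 regions (5.93%, 3.03 to 11.3, against 12.2%), control alone with 8 (5.93%, against 10.2%), and Halo-Sox2 with control but without Halo-Sox2a with 0 (interval 0.0 to 2.77%, against 1.90%). The window thus held a smaller share of regions of Halo-Sox2 alone than the genome did.

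Peaks were denser in gamma than in alpha and beta. Members were also packed most densely there, with 21 in 180 kb against 14 in 259 kb in alpha and 22 in 256 kb in beta. The part of this packing in the peak density was not tested. The gamma cluster (chr18:37661775-37841873) held 36, 35 and 35 peaks in Halo-Sox2, Halo-Sox2a and control, or 20.0, 19.4 and 19.4 per 100 kb. The alpha cluster (chr18:36930285-37188897) held 14, 22 and 21, or 5.41, 8.51 and 8.12 per 100 kb. The beta cluster (chr18:37264998-37521419) held 17, 26 and 26, or 6.63, 10.1 and 10.1 per 100 kb. Halo-Sox2, the longest list, thus had the fewest peaks in alpha and in beta, and about as many as the others in gamma. Among peaks at or above percentile 50 of their own list, gamma held 12, 22 and 17, so there too Halo-Sox2 had the fewest. Only 1 region lay in the 76.1-kb gap between alpha and beta, and 5 lay in the 140-kb gap between beta and gamma, all of them in all 3 lists.

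**Figure D1:**
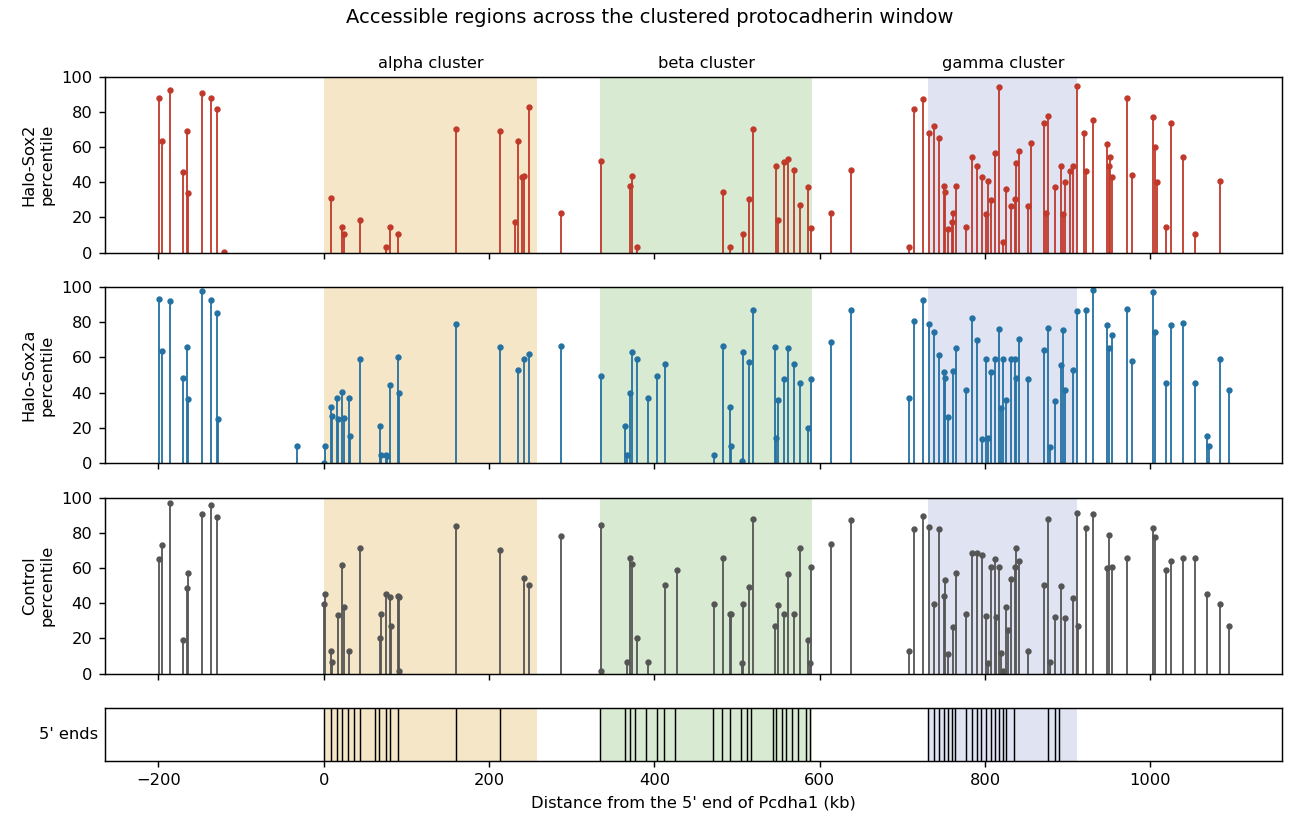
Peaks of the 3 libraries along the protocadherin window, by distance from the Pcdha1 5′ end in kb, with 1 panel per library, the within-list percentile of each region's highest peak as stem height, the clusters shaded and the members' 5′ ends as ticks. Gamma is filled with peaks in all 3 lists, while Halo-Sox2 has 14 peaks in alpha against 22 and 21, and 17 in beta against 26 and 26.

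The 5′ ends of the members, where the variable promoters lie, were examined first. A member counted as open when a peak lay within 1 kb of its 5′ end; neighbouring 5′ ends were at least 4154 bp apart. Of 57 members, 32 (56.1%, 43.3 to 68.2) were open in Halo-Sox2, 38 (66.7%, 53.7 to 77.5) in Halo-Sox2a and 35 (61.4%, 48.4 to 72.9) in control. Over 17492 protein-coding genes of known strand the shares were 61.8%, 62.6% and 62.2%, so the members as a whole were near the background. The 3 clusters differed widely within that total: gamma had 20, 19 and 19 of 21 open, alpha 8, 12 and 11 of 14, and beta 4, 7 and 5 of 22. For scale, Hox genes of known strand, another clustered family, had 15, 12 and 16 of 22 open at the 5′ end, and olfactory receptor genes of known strand, a clustered family used in sensory neurons, had 18, 15 and 19 of 944.

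Most members were open in all 3 lists or in none, though a smaller share of them than of all protein-coding genes. All 3 lists held a peak at 30 members (8 alpha, 3 beta, 19 gamma), and no list held one at 17 (Pcdha6, Pcdha8, Pcdhgc5 and 14 beta genes); 58.9% and 34.6% of all protein-coding genes fell in these classes. The other 10 members differed between lists and are named here after their values were seen. Pcdha1, Pcdha5, Pcdha9 and Pcdhb12 were open in Halo-Sox2a and control, Pcdhb22 in control alone, Pcdha3, Pcdhb2 and Pcdhb6 in Halo-Sox2a alone, Pcdhb16 in both transgene lists and Pcdhgb2 in Halo-Sox2 alone. Thus 5 members (8.77%, 3.81 to 18.9) were open in control and not in Halo-Sox2, against 2.72% of all genes, and 2 (3.51%) were open in Halo-Sox2 and not in control, against 2.27%. Set beside these, Halo-Sox2a had 4 open members that control lacked (7.02%, background 2.07%) and lacked 1 that control had (1.75%, background 1.67%); both comparisons read against the same control library. Halo-Sox2a had 7 that Halo-Sox2 lacked (12.3%, 6.08 to 23.2, background 2.58%), and Halo-Sox2 had 1 that Halo-Sox2a lacked (1.75%, background 1.73%).

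**Figure D2:**
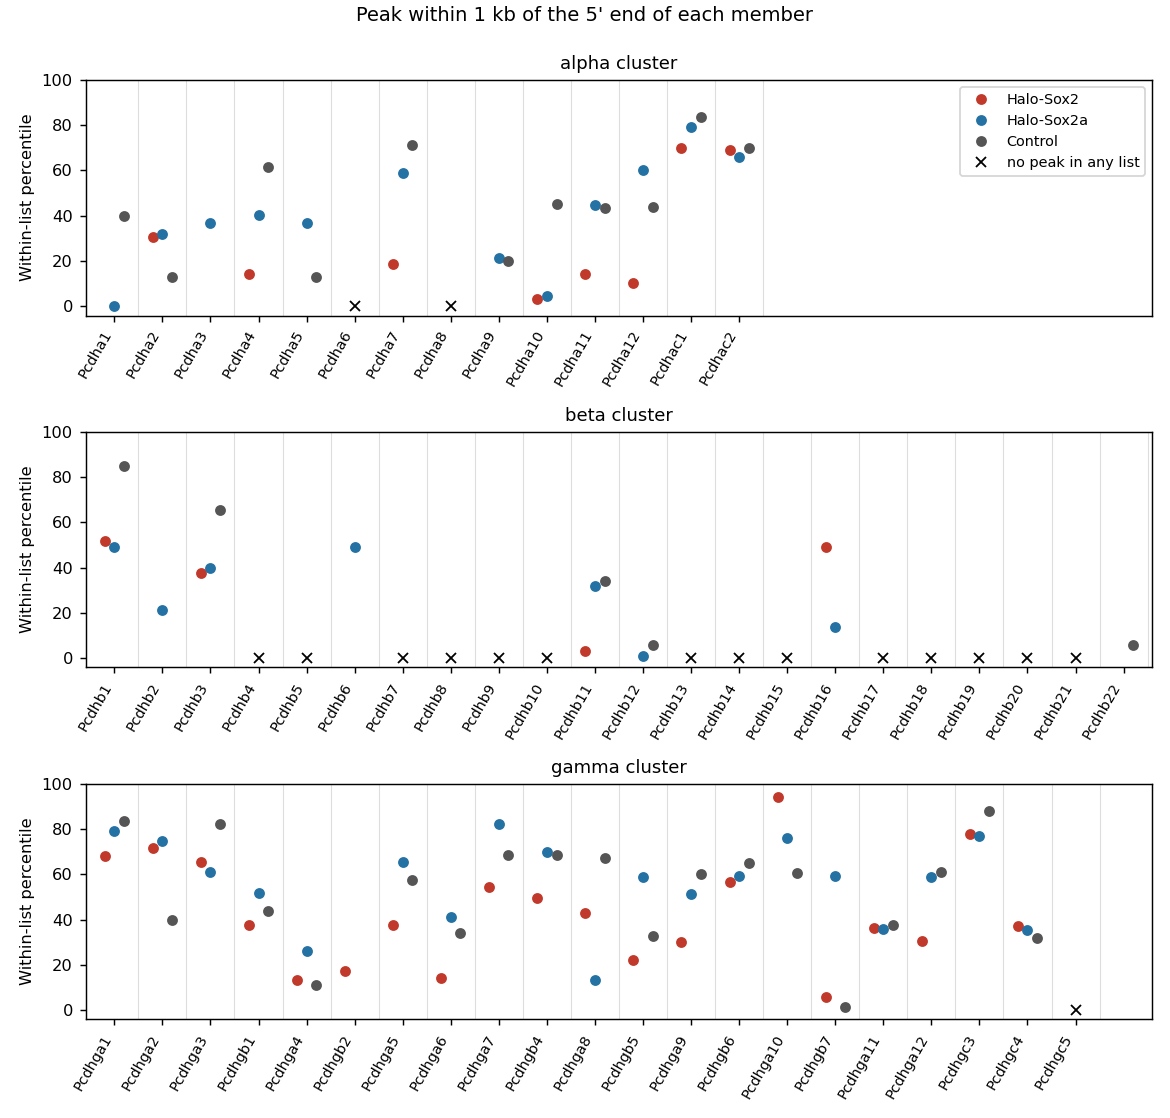
Within-list percentile of the peak at the 5′ end of each member, in chromosome order and by cluster, for the 3 libraries; a cross marks a member without a peak in any list. Nearly all gamma members have 3 points, 14 of the 22 beta members have a cross, and several alpha members lack only the Halo-Sox2 point.

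In alpha, the C-type members Pcdhac1 and Pcdhac2 had the highest 5′-end ranks of the transgene lists; in control Pcdha7 stood between them. Pcdhac1 (chr18:37090136-37187657) had a 5′-end peak at percentile 70.1 in Halo-Sox2, 79.3 in Halo-Sox2a and 83.6 in control. Pcdhac2 (chr18:37143678-37187663) had one at 69.2, 65.9 and 69.9. Each was therefore well inside the upper part of every list, and neither was absent from any. The other 12 alpha members had a peak at 6, 10 and 9 of their 5′ ends.

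Among those, Pcdha7 (chr18:36973811-37187663) stood at percentile 18.8 in Halo-Sox2, 59.0 in Halo-Sox2a and 71.3 in control. Pcdha4 (chr18:36952689-37187657) stood at 14.4, 40.3 and 61.4. Pcdha12 (chr18:37020230-37187657), the last variable exon before the C-type pair, stood at 10.3, 60.3 and 43.9. In these 3, which the naming rule took for their high rank in another list, the Halo-Sox2 peak was the lowest-ranked. Over the 8 alpha members open in every list it was the lowest in 6, and Pcdha2 went the other way from control, with 30.8 in Halo-Sox2, 31.8 in Halo-Sox2a and 12.9 in control. Pcdha1 (chr18:36930285-37187657), the first of the cluster, had no Halo-Sox2 peak, a Halo-Sox2a peak at the lowest score of its list (13, percentile 0.0) and a control peak at percentile 39.8. Over the open members the median percentile was 16.6 in Halo-Sox2, 38.5 in Halo-Sox2a and 43.9 in control, over 8, 12 and 11 members.

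Beta 5′ ends were mostly without peaks. Pcdhb1 (chr18:37264998-37267454), the first beta gene, stood at percentile 52.0, 49.3 and 84.6 in Halo-Sox2, Halo-Sox2a and control. Pcdhb3 (chr18:37300799-37304585) stood at 37.6, 39.8 and 65.5. Pcdhb11 (chr18:37421418-37425032) stood at 3.3, 31.8 and 34.1. These were the only beta members open in each list, and all 3 ranked highest in control. Pcdhb16 (chr18:37477768-37483038) had a peak at percentile 49.1 in Halo-Sox2 and 14.0 in Halo-Sox2a and none in control. Pcdhb6 (chr18:37333860-37337438) had one in Halo-Sox2a alone, at 49.3, and Pcdhb22 (chr18:37518353-37521419), the last of the cluster, had one in control alone, at 6.1.

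Gamma 5′ ends were open with few exceptions. All 12 Pcdhga members were open in each list, and 6, 5 and 5 of the 6 Pcdhgb members. The single difference was Pcdhgb2 (chr18:37689859-37841872), whose Halo-Sox2 peak stood at percentile 17.3. The peaks sat on the 5′ end itself: over open gamma members, the median peak ran from 95 bp before to 395 bp after it in Halo-Sox2, and the median start was -133 bp in Halo-Sox2a and -92 bp in control.

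Pcdhga1 (chr18:37661775-37841870), the first gamma exon, stood at percentile 68.0, 79.1 and 83.4 in Halo-Sox2, Halo-Sox2a and control. Pcdhga3 (chr18:37674335-37841873) stood at 65.3, 61.2 and 82.1. Pcdhga7 (chr18:37714834-37841873) stood at 54.3, 82.3 and 68.7. In these 3 Halo-Sox2 ranked below control, while the place of Halo-Sox2a varied. Pcdhga10 (chr18:37747016-37841870) went the other way, with 94.0 in Halo-Sox2, 76.0 in Halo-Sox2a and 60.6 in control, the highest 5′-end rank of any member in Halo-Sox2. Pcdhga2 (chr18:37668927-37841870) was at 71.8, 74.6 and 39.8; these were the 2 members with at least 25 points more in Halo-Sox2 than in control.

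The gamma C-type members were unlike each other. Pcdhgc3 (chr18:37806410-37841873) stood at percentile 77.7, 76.8 and 88.0, and Pcdhgc4 (chr18:37815079-37841873) at 37.0, 35.3 and 32.0. The Pcdhgc4 values belong to different places, since the Halo-Sox2 peak lay at -557 to 543 bp from the 5′ end. The higher of 2 Halo-Sox2a peaks lay at -968 to -393 bp and the control peak at -736 to -393 bp, short of the 5′ end. Pcdhgc5 (chr18:37819546-37841873) had no peak at its 5′ end in any list. It was also 1 of only 3 members, with Pcdha6 and Pcdha8, without a peak at either of the positions described here. However, chr18:37822272-37822913, in every list at 49.0, 55.8 and 49.9, had its midpoint 3046 bp past the Pcdhgc5 5′ end, just outside the second position. Over the 4 open C-type members the median percentile was 69.6, 71.4 and 76.8, above the medians of alpha (16.6, 38.5 and 43.9), beta (43.4, 31.8 and 34.1) and gamma (37.7, 59.0 and 60.3), of which alpha and gamma include them.

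Beta genes carried their peaks further into the gene. A second position, a peak midpoint 1 to 3 kb downstream of the 5′ end, was defined after the coverage around 5′ ends had been seen. There, 13 of 22 beta members had a peak in Halo-Sox2 (59.1%, 38.7 to 76.7), 19 in Halo-Sox2a (86.4%, 66.7 to 95.3) and 21 in control (95.5%, 78.2 to 99.2). Over all protein-coding genes the shares were 12.3%, 11.6% and 10.5%, and over genes of at most 10 kb, nearer the beta genes in length, 9.87%, 9.76% and 8.87%. Because the band was set on these genes, its height above the background is a description only. Beta genes were 2340 to 5271 bp long, and all 21 control peaks lay within their gene.

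These inner peaks had a common place. Their midpoints had medians of 2068, 2043 and 2033 bp from the 5′ end in Halo-Sox2, Halo-Sox2a and control. Coverage of beta genes was highest 2050, 2000 and 2100 bp downstream, where peaks lay over 13, 19 and 18 of 22 genes. Gamma and protein-coding genes in general had their maximum within 100 bp of the 5′ end, with 90.5%, 85.7% and 81.0% of gamma members covered and 52.2%, 53.0% and 51.9% of all genes. Beta genes are close copies of each other, and how reads matching several copies were treated is not given in the sources used here, so the share of each peak that belongs to its own gene is uncertain.

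**Figure D3:**
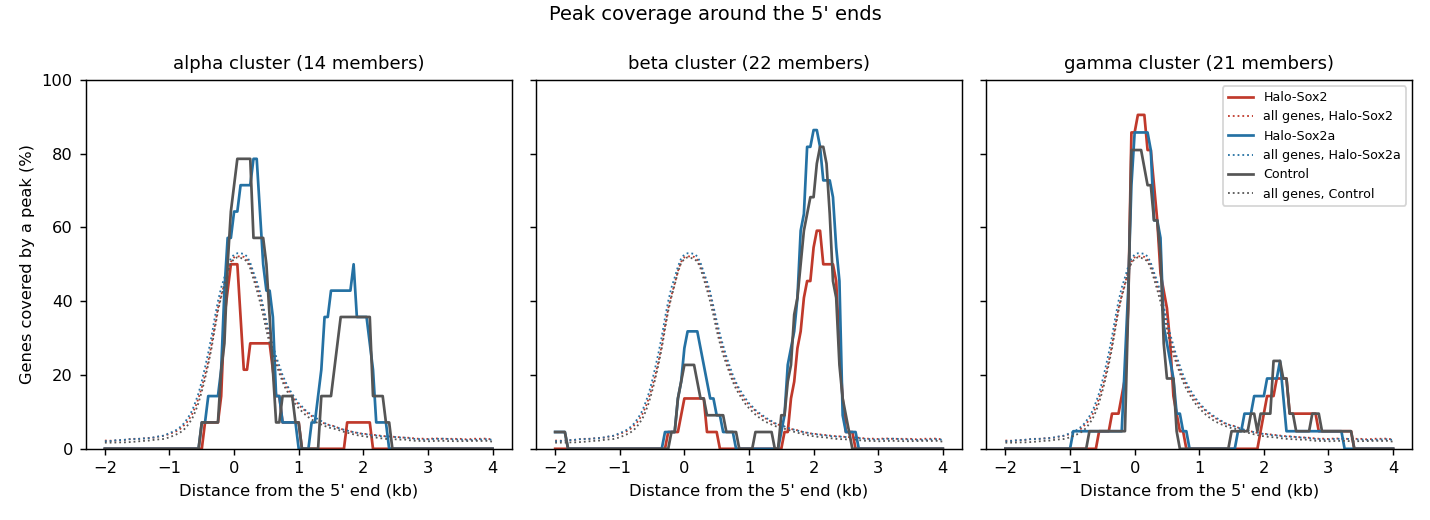
Percent of genes with a peak over each position from 2 kb before to 4 kb after the 5′ end, for alpha, beta and gamma members (solid lines) and all protein-coding genes (dotted lines) in the 3 libraries. Gamma and all genes have their maximum at the 5′ end, while beta has it near 2 kb downstream, at 59.1% in Halo-Sox2, 86.4% in Halo-Sox2a and 81.8% in control.

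The strongest inner peak was that of Pcdhb14 (chr18:37447657-37451094), a gene with no peak at its 5′ end, at percentile 70.1 in Halo-Sox2, 86.8 in Halo-Sox2a and 87.9 in control. Pcdhb3, open at both positions, had an inner peak at 43.8, 63.0 and 62.2. Pcdhb20 had one at 26.8, 45.5 and 71.3, and Pcdhb18 one at 53.3, 65.3 and 56.3. In these 4 genes the Halo-Sox2 rank was the lowest. Over the 13 beta genes with an inner peak in every list, Halo-Sox2 ranked lowest in 10 and above control in 3, Pcdhb17, Pcdhb19 and Pcdhb21. Pcdhb17 had 51.7 in Halo-Sox2, 47.7 in Halo-Sox2a and 34.1 in control. Of the 22 beta genes, 13 had the inner peak in every list, 6 in Halo-Sox2a and control (Pcdhb2, Pcdhb5, Pcdhb7, Pcdhb9, Pcdhb11 and Pcdhb15), 2 in control alone (Pcdhb1 and Pcdhb8) and 1, Pcdhb6, in none. No beta gene had it in Halo-Sox2 without control, but only Pcdhb6 could have, since control had it at every other beta gene. The highest peak shared by Halo-Sox2a and control alone was that of Pcdhb15, at 65.9 and 27.3, and the highest in control alone that of Pcdhb8, at 58.6.

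Coverage of alpha members was highest near the 5′ end, over 7, 11 and 11 of 14. Alpha members also had peaks in the 1 to 3 kb band, where coverage was highest at 1750, 1850 and 1650 bp. These inner peaks were present at 1 of 14 alpha members in Halo-Sox2 (Pcdha4; 7.14%, 1.27 to 31.5), 8 in Halo-Sox2a (57.1%, 32.6 to 78.6) and 7 in control (50.0%, 26.8 to 73.2), against the 12.3%, 11.6% and 10.5% of all genes. The Halo-Sox2 share was thus near its background. Those of Pcdha1, Pcdha2, Pcdha3, Pcdha9 and Pcdha12 were shared by Halo-Sox2a and control, that of Pcdha11 was in control alone, and those of Pcdha5 and Pcdha10 were in Halo-Sox2a alone. Gamma had inner peaks at 4, 6 and 8 of 21 members (19.0%, 28.6% and 38.1%). Over the 3 clusters the counts were 18, 33 and 36 of 57 members (31.6%, 57.9% and 63.2%).

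Regions in 1 of the Halo-Sox2 and control lists and not in the other were sorted by place. Regions of the control that Halo-Sox2 lacked numbered 27 (20.0%, 14.1 to 27.5), close to the 20.5% genome-wide: 6 within 1 kb of a member's 5′ end, 18 in the inner position and 3 elsewhere. Regions of Halo-Sox2 that the control lacked numbered 14 (10.4%, 6.28 to 16.7), below the 33.3% genome-wide: 2 at 5′ ends, 0 in the inner position and 12 elsewhere, that is, between or beyond the variable exons. All 56 regions elsewhere comprised 38 that were in every list. This division by position was made after the data were seen and was not tested.

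The 12 Halo-Sox2 regions without control that lay elsewhere included 3 in alpha, all between the Pcdhac2 5′ end and the end of the cluster, on the side of the constant exons. The region chr18:37165221-37165776 was at percentile 63.5 in Halo-Sox2 and 52.9 in Halo-Sox2a, and those at chr18:37169664-37169956 and chr18:37161350-37161594 were in Halo-Sox2 alone, at 43.2 and 17.6. Near them, chr18:37178271-37179074, 34994 bp past the Pcdhac2 5′ end, was in every list, at 82.7 in Halo-Sox2, 61.9 in Halo-Sox2a and 50.2 in control. It was the highest-ranked alpha region of the Halo-Sox2 list.

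In gamma, 4 such regions lay away from 5′ ends. The highest in Halo-Sox2, chr18:37785956-37786734, lay between Pcdhga12 and the C-type members and was in Halo-Sox2 alone, at percentile 62.3. Past Pcdhgc5, chr18:37824587-37825312 was at 22.0 in Halo-Sox2 and 75.7 in Halo-Sox2a. At the shared 3′ end of the cluster, chr18:37840288-37842376 was in every list and had the highest Halo-Sox2 rank of the window, at 94.5, against 86.1 in Halo-Sox2a and 91.4 in control.

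Downstream of gamma lies Diaph1, a formin gene that regulates actin, whose body held 11 regions, 8 of them in every list. The peak at chr18:37859825-37860950 was at percentile 75.1 in Halo-Sox2, 98.4 in Halo-Sox2a and 90.5 in control, and was the highest Halo-Sox2a peak of the window, at rank 1346. The peak at chr18:37901499-37902359 was at 87.6, 87.3 and 65.5. The peak at chr18:37932561-37933300 was at 76.9, 97.1 and 82.9. The region chr18:37849574-37849903 was the highest of those in Halo-Sox2 alone, at 68.1. Ranks in Diaph1 thus followed no single order of libraries.

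Regions between the clusters were few and, as merged, shared. In the beta to gamma gap, 1 of 5 Halo-Sox2 peaks overlapped no control peak, and 1 of 5 control peaks no Halo-Sox2 peak. These were joined into a region only through a Halo-Sox2a peak. The alpha to beta gap held chr18:37217501-37218490, at percentile 22.8 in Halo-Sox2, 66.7 in Halo-Sox2a and 78.0 in control, with Halo-Sox2 55.2 points under control. The beta to gamma gap held chr18:37655510-37656033, whose midpoint lay at -6004 bp from the Pcdhga1 5′ end, at 87.1, 92.4 and 89.4, and a peak at Taf7, a subunit of the general transcription factor TFIID, at 81.5, 80.9 and 82.3. Both ranked alike in the 3 lists. The other 3 regions of that gap included chr18:37567952-37568764, at 46.8, 86.9 and 87.0, and chr18:37543491-37544261, at 22.8, 68.9 and 73.7. All 5 regions of the gap ranked lower in Halo-Sox2 than in control, 2 of them by at least 25 points. Of 15 other protein-coding genes of the window, 14, 15 and 15 had a peak at an end, with Arap3 missing from Halo-Sox2.

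Peak by peak, more of the window was shared between lists than of each whole list. Of 102 Halo-Sox2 peaks, 16 (15.7%, 9.89 to 24.0) overlapped no control peak, against 49.3% of the list. Of 119 Halo-Sox2a peaks, 13 (10.9%, 6.50 to 17.8) overlapped none, against 33.4%. Both comparisons share the control. In reverse, the control had 28 peaks of 114 (24.6%, 17.6 to 33.2) with no counterpart in Halo-Sox2, against 37.5%, and 8 (7.02%, 3.60 to 13.2) with none in Halo-Sox2a, against 22.0%. Between the transgene lists, 10 Halo-Sox2 peaks (9.80%, 5.41 to 17.1) overlapped no Halo-Sox2a peak, against 38.7%, and 28 Halo-Sox2a peaks (23.5%, 16.8 to 31.9) no Halo-Sox2 peak, against 35.4%. In each of the 6 comparisons the window's interval lay below the share of the whole list. With lists of equal size this held in 4 of the 6, without the flanks in 5, and among peaks at or above percentile 50 in 4.

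By cluster, the alpha and beta shares of peaks that Halo-Sox2 lacked were near those of the whole lists. Control peaks without a Halo-Sox2 peak were 10 of 21 in alpha and 10 of 26 in beta, or 47.6% (28.3 to 67.6) and 38.5% (22.4 to 57.5), around the 37.5% of the whole list. In gamma they were 4 of 35, or 11.4%. Halo-Sox2a peaks without a Halo-Sox2 peak were 10 of 22 in alpha (45.5%) and 9 of 26 in beta (34.6%), around the 35.4% of the whole list, and 2 of 35 in gamma. The absent peaks ranked low in their own lists: at or above percentile 50, 2 of 58 control peaks had no Halo-Sox2 peak (3.45%), against 16.4% of such peaks genome-wide.

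**Figure D4:**
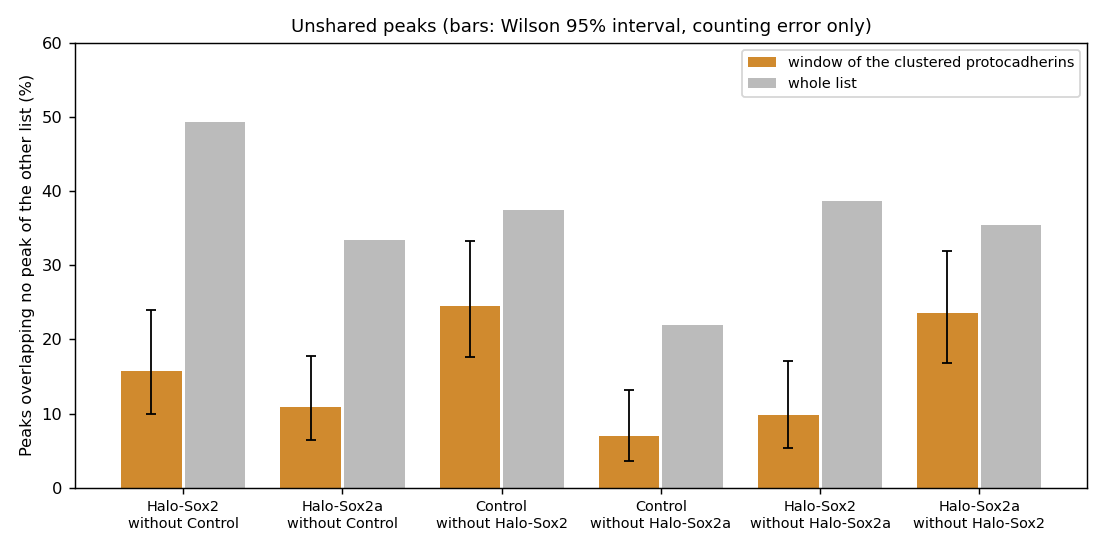
Percent of a list's peaks that overlap no peak of a second list, for the protocadherin window with its Wilson 95% interval and for the whole list. Each of the 6 window values lies below that of its whole list, from 7.02% against 22.0% to 24.6% against 37.5%.

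Where all 3 lists had a peak, Halo-Sox2 had the lowest median rank, as it did genome-wide. Over the 86 such regions the median percentile was 43.8 (37.2 to 50.8) in Halo-Sox2, 59.0 (56.2 to 65.3) in Halo-Sox2a and 60.4 (53.1 to 65.5) in control, below the 61.5, 72.2 and 67.8 of all such regions. In 63 of the 86 (73.3%, 63.1 to 81.5) the percentile was lower in Halo-Sox2 than in control, against 63.8% genome-wide, a background that lies inside the window's interval. The median difference was -10.9 points in the window and -5.11 genome-wide. A difference of at least 25 points, a size chosen after the data were seen, was found downward in 23 regions (26.7%, 18.5 to 36.9, against 19.2%) and upward in 5 (5.81%, against 10.4%).

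Halo-Sox2a set beside the same control was lower in 37 of 86 regions (43.0%, 33.1 to 53.6, against 42.4%). It was at least 25 points higher in 8 (9.30%, against 12.8%) and lower in 5 (5.81%, against 5.69%). These shares were near the background. Halo-Sox2 against Halo-Sox2a was lower in 67 of 86 (77.9%, 68.1 to 85.4, against 71.1%), at least 25 points lower in 27 (31.4%, 22.6 to 41.8, against 20.4%) and at least 25 points higher in 2 (2.33%, against 4.70%). In this last comparison, the window's interval for a difference of at least 25 points downward lay wholly above the genome-wide share. With ranks taken in lists of equal size it did not (31.0%, 21.4 to 42.5, against 23.5%), and without the flanks it did (34.4%, 23.9 to 46.6, against 20.4%). For Halo-Sox2 against control, the interval lay above without the flanks (29.7%, 19.9 to 41.8, against 19.2%). With lists of equal size that interval held the genome-wide share (35.2%, 25.1 to 46.8, against 26.3%). Both settings were added after the data were seen.

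At the 30 members open in every list, Halo-Sox2 was lower than control in 24 (80.0%, 62.7 to 90.5), an interval that holds the 63.8% of all shared regions. By cluster these were 7 of 8 in alpha, 3 of 3 in beta and 14 of 19 in gamma. The difference was at least 25 points downward in 10 (33.3%, 19.2 to 51.2, against 19.2% of all shared regions), of which 5 were alpha, 3 beta and 2 gamma members; Pcdha7 was 52.5 points lower. Halo-Sox2a was lower than control in 16 of the 30 (53.3%, 36.1 to 69.8, against 42.4%). Its widest differences from control were in gamma: Pcdhgb7 stood at percentile 59.0 in Halo-Sox2a and 1.6 in control, and Pcdhga8 at 13.5 and 67.2.

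**Figure D5:**
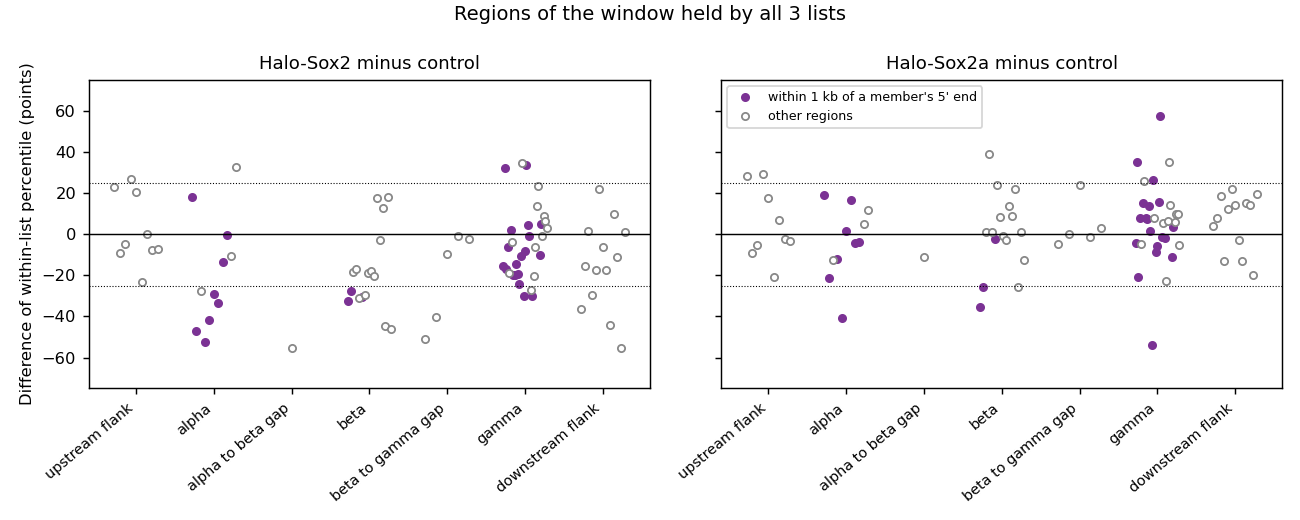
Difference in within-list percentile from the control, for each region held by all 3 lists, by segment of the window, with Halo-Sox2 and Halo-Sox2a side by side. Halo-Sox2 lies below 0 in 63 of 86 regions and Halo-Sox2a in 37 of 86; both use the same control library.

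Genes related to the cluster by family or by action on it were open alike in the 3 lists, with few exceptions. Of 12 non-clustered protocadherins, single genes elsewhere in the genome, 9, 10 and 10 had a peak at the 5′ end (at either end for 3 without a strand in the table used). Pcdh15, a component of the tip links of hair cells, was missing from Halo-Sox2 and stood at percentile 30.7 in Halo-Sox2a and 25.7 in control. Pcdh8 stood at 75.1, 80.9 and 80.7. Of 14 genes for factors that act on the cluster's chromatin, 10, 10 and 11 were open, again with 3 read at either end. By 5′ end alone, 7, 8 and 8 of 9 non-clustered protocadherins and 9, 9 and 10 of 11 factor genes were open. Over all protein-coding genes of known strand the 5′-end shares were 61.8%, 62.6% and 62.2%, and none was computed for either end. Ctcf, whose protein binds at cluster promoters, stood at 91.5, 93.9 and 95.3. Stag1, a cohesin subunit, was missing from Halo-Sox2, and Wapl, which releases cohesin, from Halo-Sox2a.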

How the data were processed

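ATAC-seq peak lists of 3 libraries were used. The score of each peak, the only measurement deposited, is the authors' own whole number without a stated scale. Per the submitters' processing notes, the build was mm10 and the tools were STAR, SAMtools, MACS2 3.0.0a7, MACS3 and deepTools 3.3.0, with no role given; thresholds, any shift of read ends and the handling of reads matching several copies are not given in the sources used here. Per the deposited peak names, peaks were called per library, and list names carry the word noblacklist. Depth is unknown.

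Positions were made 1-based. Peaks were shared when they overlapped by at least 1 bp, and overlapping peaks of the 3 lists were merged into regions; a region's percentile in a list was that of its highest peak. A member's 5′ end was its lower coordinate, since the alpha and gamma members share their upper ends and the beta genes were taken in the same orientation. For other genes, strand came from the RefSeq promoter table (17492 protein-coding genes), or either end was used. That table holds no member, so no sequence is printed. Named members are the 5 C-type members, the first and last of each cluster, and the 5 open members of each cluster with the highest percentile in any list. Pcdha2, Pcdhb8, Pcdhb14, Pcdhb15, Pcdhb17, Pcdhb18, Pcdhb19, Pcdhb20, Pcdhb21, Pcdhga2, Pcdhga8, Pcdhgb2 and Pcdhgb7 were added after their values were seen. Named regions are the 3 highest of each segment, the highest of each class, and others singled out after their values were seen. The members, lists and tests were chosen with earlier results of these data known. Alternatives covered distance, overlap, list size, rank threshold, flank and rank base. Analyses used Python 3.11.15, numpy 2.4.6, pandas 2.3.3, scipy 1.17.1 and matplotlib 3.10.9, and the overlap code was tested on simulated data.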

Additional observations from a re-analysis of the deposited data

How the results depend on the processing

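Of 114 values recomputed under other settings, 86 stayed within the interval of their share or median or within 1.5 times their count, and 28 moved. A distance of 2.5 kb raised the open members to 43 in Halo-Sox2, 53 in Halo-Sox2a and 53 in control, since it takes in the inner position. Of these, only the control count passed 1.5 times its first value. With lists of equal size (the 72638 highest peaks of each), control peaks without a Halo-Sox2 peak were 36.8% (whole list 45.1%), those without a Halo-Sox2a peak 14.9% (26.5%), and Halo-Sox2 peaks in alpha 8. Open members were then 23 in Halo-Sox2, 35 in Halo-Sox2a and 35 in control, all within 1.5 times their counts. This trim takes the most peaks from Halo-Sox2, the longest list. For open members at 2.5 kb, at equal size and at percentile 50, no share of all protein-coding genes is given. Differences between lists in these counts therefore have no background. Ranks in lists of equal size, added after seeing the data, put Halo-Sox2a under control in 54.9% of shared regions (51.2% of all). Without the flanks, the shared-region median was 58.8 in Halo-Sox2a and 54.1 in control, the opposite order to that with them. Keeping peaks at or above percentile 50, which by construction leaves fewer, gave 10, 18 and 17 open members in Halo-Sox2, Halo-Sox2a and control, and 4, 11 and 10 members with an inner peak (an inner-position setting also added after seeing the data). Peaks by cluster were then 4, 7 and 6 in alpha, 4, 10 and 10 in beta, and 12, 22 and 17 in gamma. Shares outside another list were then 4.76% (whole list 12.9%) for Halo-Sox2a against control, 3.45% (16.4%) for control against Halo-Sox2, 1.72% (5.19%) for control against Halo-Sox2a and 3.17% (12.6%) for Halo-Sox2a against Halo-Sox2. No paired analysis was possible because each group had 1 library, and for the same reason no replicate could be left out. Absence of a peak is no proof of closed chromatin, because the calling threshold and the depth behind it are unknown, and most absent peaks ranked low where they were called.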

Other observations

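Scores were heavily tied, which limits how finely peaks can be ranked. The commonest score was 54 in Halo-Sox2 (2556 peaks), 32 in Halo-Sox2a (3363 peaks) and 34 in control (3494 peaks), and the lists held 1514, 1164 and 871 distinct scores. The lowest score was 13 in each list. Upstream of alpha, the regions named next were picked as the highest-ranked of that flank, so a high rank follows from the choice. The region at Hars and Hars2, which encode histidyl-tRNA synthetases, stood at percentile 90.6 in Halo-Sox2, 97.8 in Halo-Sox2a and 90.7 in control. That at Zmat2 stood at 87.6, 92.9 and 95.5. That at Ndufa2, a subunit gene of respiratory complex I, stood at 92.5, 92.0 and 97.1. Not every region near a gene end of the flank ranked so high. The region chr18:36759734-36760463, near an end of Wdr55, stood at 45.8, 48.4 and 19.0. The region chr18:36765998-36766409, near an end of Dnd1, stood at 33.8, 36.6 and 57.3.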
